A study of Homo sapiens with 12 samples.

Results

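The genes described here are 10 transcripts of the AP-1 and immediate early response: FOS, FOSL1, FOSL2, JUN, JUNB, JUND, EGR1, ATF3, IER2 and IER3. They were taken by gene symbol, and all 10 were found among the 25528 rows of the expression table. Coordinates are those of RefSeq on GRCh38.p14, the assembly family of hg38, which the submitters' processing notes name. The RNA-seq data are 12 libraries of the established colon adenocarcinoma cell line HT-29, whose genotype is labelled APC mutant, so every group, controls included, carries mutant APC. CTNNB1 encodes beta-catenin, which a complex holding APC targets for breakdown. In the open reading frame arm, cells received lentivirus with GFP (the control) or CTNNB1 and were collected at day 2 after infection. In the hairpin arm, cells received lentivirus with the control hairpin shNT1 or a hairpin against APC (shAPC) and were collected at day 1 of 2 µM doxycycline. There were 3 libraries in each of the 4 groups. The arms differ in vector, day and doxycycline, so each perturbation was compared with its own control. The labels do not say whether the libraries of a group came from separate cultures, so the p-values measure only the spread between these libraries.

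AP-1 is a dimer of basic leucine zipper proteins that binds a short DNA site. JUN proteins pair with themselves or with FOS proteins, while FOS proteins need a partner such as a JUN protein. Many of these genes are immediate early genes: serum, growth factors or stress acting through ERK, JNK and p38 kinases raise their transcripts within minutes, with no new protein made, and the transcripts decay fast. EGR1 is a zinc finger factor of the same response, ATF3 is a basic leucine zipper factor of the stress response that can pair with JUN proteins, and IER2 and IER3 are small early response proteins. In intestinal epithelium, JUN and beta-catenin signalling are known to meet at shared target genes.

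Promoter sequence is shown for a choice of the called genes: JUN and ATF3, which rose in both arms, JUNB, which fell in both, and FOS and EGR1, which fell in the hairpin arm. IER2 also fell in the hairpin arm, but its window, which held no motif match, is not printed. The RefSeq promoter table (GRCh38.p14) held 8 of the 10 genes in 9 windows, since ATF3 has 2 starts in it. Each window runs from 250 bases before a start to 50 after it. The 250 bases before the start are printed 5′ to 3′ on the gene's own strand, and capitals mark motif matches.
JUN, chr1:58784048-58784297, minus strand: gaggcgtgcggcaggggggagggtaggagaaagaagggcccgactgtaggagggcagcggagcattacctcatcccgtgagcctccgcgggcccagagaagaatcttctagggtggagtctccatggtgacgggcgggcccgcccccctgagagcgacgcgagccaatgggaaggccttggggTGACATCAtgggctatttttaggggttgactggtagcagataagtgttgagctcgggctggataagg
ATF3, chr1:212565157-212565406, plus strand: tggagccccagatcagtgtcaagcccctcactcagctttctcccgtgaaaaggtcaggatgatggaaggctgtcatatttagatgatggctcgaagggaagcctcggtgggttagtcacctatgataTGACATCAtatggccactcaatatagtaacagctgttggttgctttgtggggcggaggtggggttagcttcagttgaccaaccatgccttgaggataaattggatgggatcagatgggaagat
FOS, chr14:75278578-75278827, plus strand: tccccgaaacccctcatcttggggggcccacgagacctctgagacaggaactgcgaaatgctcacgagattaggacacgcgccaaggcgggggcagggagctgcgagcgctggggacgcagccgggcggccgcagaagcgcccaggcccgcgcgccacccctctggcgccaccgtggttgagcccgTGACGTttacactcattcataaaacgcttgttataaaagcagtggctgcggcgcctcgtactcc
EGR1, chr5:138465229-138465478, plus strand: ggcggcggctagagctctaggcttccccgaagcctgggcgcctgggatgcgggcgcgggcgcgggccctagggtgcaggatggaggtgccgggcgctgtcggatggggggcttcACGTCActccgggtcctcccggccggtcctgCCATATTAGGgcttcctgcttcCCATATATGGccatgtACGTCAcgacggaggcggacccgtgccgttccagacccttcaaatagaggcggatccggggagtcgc
JUNB, chr19:12791236-12791485, plus strand: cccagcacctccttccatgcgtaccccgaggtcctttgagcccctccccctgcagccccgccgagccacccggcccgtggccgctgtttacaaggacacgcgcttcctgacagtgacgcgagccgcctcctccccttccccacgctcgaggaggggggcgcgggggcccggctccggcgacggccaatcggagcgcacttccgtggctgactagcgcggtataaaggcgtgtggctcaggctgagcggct

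JUN and, at the start shown, ATF3 held the letters TGACATCA, a variant of the cAMP response element to which JUN and ATF family dimers are known to bind. TPM per gene does not show which of the 2 ATF3 starts was used. The match began 67 bases before the JUN start and 123 bases before the ATF3 start shown. It was present in 2 of the 9 windows and in 2.61% of all 35116 windows of the same length, searched on both strands. The core TGACGT was found in 4 windows, those of FOS, EGR1, FOSL2 and JUND, against 7.98% of all windows, and the full element TGACGTCA, which contains that core, was found in JUND only, against 1.85%. Both capital runs of 10 bases in EGR1 are CArG boxes, the site of serum response factor, which occurred in 1.29% of windows and in no other window of these genes. An AP-1 site, TGACTCA or TGAGTCA, lay in the FOSL2 window only, against 4.95% of all windows. The T-cell factor letters CTTTGAA or CTTTGAT or CTTTGTA or CTTTGTT were in 0 of the 9 windows and in 13.8% of all windows. The windows of JUNB, IER2 and the ATF3 start not shown matched none of these motifs. A match is a run of letters and not a measured site, and a missing match says nothing about factors acting elsewhere.

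APC, the target of the hairpin, was at 15.8, 16.1 and 17.3 TPM (transcript abundance scaled to a fixed sum per library) in the shNT1 libraries and at 6.59, 5.91 and 5.48 TPM in the shAPC libraries. The groups did not overlap, and limma gave a log2 fold change of -1.32 (SE 0.08, adjusted p = 6.1e-06). CTNNB1 was at 144, 145 and 150 TPM with GFP and at 165, 160 and 156 TPM in the libraries labelled CTNNB1, a log2 fold change of 0.13 (SE 0.04, adjusted p = 0.059). The CTNNB1 libraries were higher without overlap, but the change did not pass the test, so the gene itself gives no called difference behind that label. Whether the annotation counts the transcript of the introduced reading frame is not given in the sources used here, so this value may not measure it.

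Across all libraries, 14756 to 16186 genes had a TPM above 0, and the lowest correlation of log2(TPM + 1) between libraries of a group was 0.991. TPM columns keep no read depth, so the counting error behind each value is unknown. Of 7 colon epithelial markers, EPCAM, KRT8 and KRT18 were at least at 1400.3, 2541 and 3678 TPM, while CDX2 stayed below 0.875 TPM in every library. With CTNNB1, VIL1 at 0.47 (SE 0.05), KRT18 at 0.28 (SE 0.04) and KRT8 at 0.17 (SE 0.04) were higher on the log2 scale. These were 3 of the 6 markers tested, against 16.3% of all genes, and 0 were lower, against 7.16%. With shAPC, KRT20 at -0.61 (SE 0.07) and CDH1 at -0.33 (SE 0.06) were lower, 2 of the 6 against 14.9% of all genes, and 0 were higher, against 7.24%. The part of these marker changes in the results was not tested. Of 7 markers of other cell types, 6 were below 1 TPM in all libraries, with CD3E at 0 in all. CD68, which epithelial lysosomes can also express, averaged 27.0 TPM with GFP, 13.2 with CTNNB1, 13.8 with shNT1 and 7.51 with shAPC and so fell with both perturbations. The summed level of that list was 27.6, 13.8, 14.6 and 8.29 TPM in the same order, and its part in the results was not tested. In bulk RNA, fewer cells of a kind and less RNA per cell cannot be told apart.

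In the open reading frame arm, JUN, ATF3 and IER3 were higher with CTNNB1 than with GFP, and FOSL1 and JUNB were lower. In the hairpin arm, JUN and ATF3 were higher with shAPC than with shNT1, and FOS, JUNB, EGR1 and IER2 were lower. A gene was called at an adjusted p under 0.05, with p-values adjusted over all genes whose TPM averaged 1 or more, a filter all 10 genes passed in every comparison. CTNNB1 called 5 of the 10 genes, 3 higher and 2 lower, against 23.5% of all 11624 genes tested (16.3% higher and 7.16% lower). The shAPC hairpin called 6 of the 10, 2 higher and 4 lower, against 22.1% of 11834 genes (7.24% higher and 14.9% lower). The groups did not overlap for 6 of the 10 genes with CTNNB1, against 43.2% of all genes, and for 7 of the 10 with shAPC, against 40.9%. JUN, JUNB and ATF3 were called in both arms, each in the same direction. How often genes as a whole were called in both arms was not counted, so this is not read as particular to these genes. CTNNB1 alone called FOSL1 and IER3, shAPC alone called FOS, EGR1 and IER2, and neither called FOSL2 or JUND. Whether an effect differs between arms is a separate test, given further on.

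The changes were of modest size. The median size of the log2 fold change, sign ignored, was 0.27 over the 10 genes with CTNNB1 against 0.12 over all genes, and 0.29 against 0.13 with shAPC. With signs, the medians were 0.18 against 0.06 with CTNNB1 and -0.07 against -0.04 with shAPC, so the genes had no common direction. Fold changes here are on the log2(TPM + 1) scale, which understates the change of low genes such as ATF3.

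**Figure D1:**
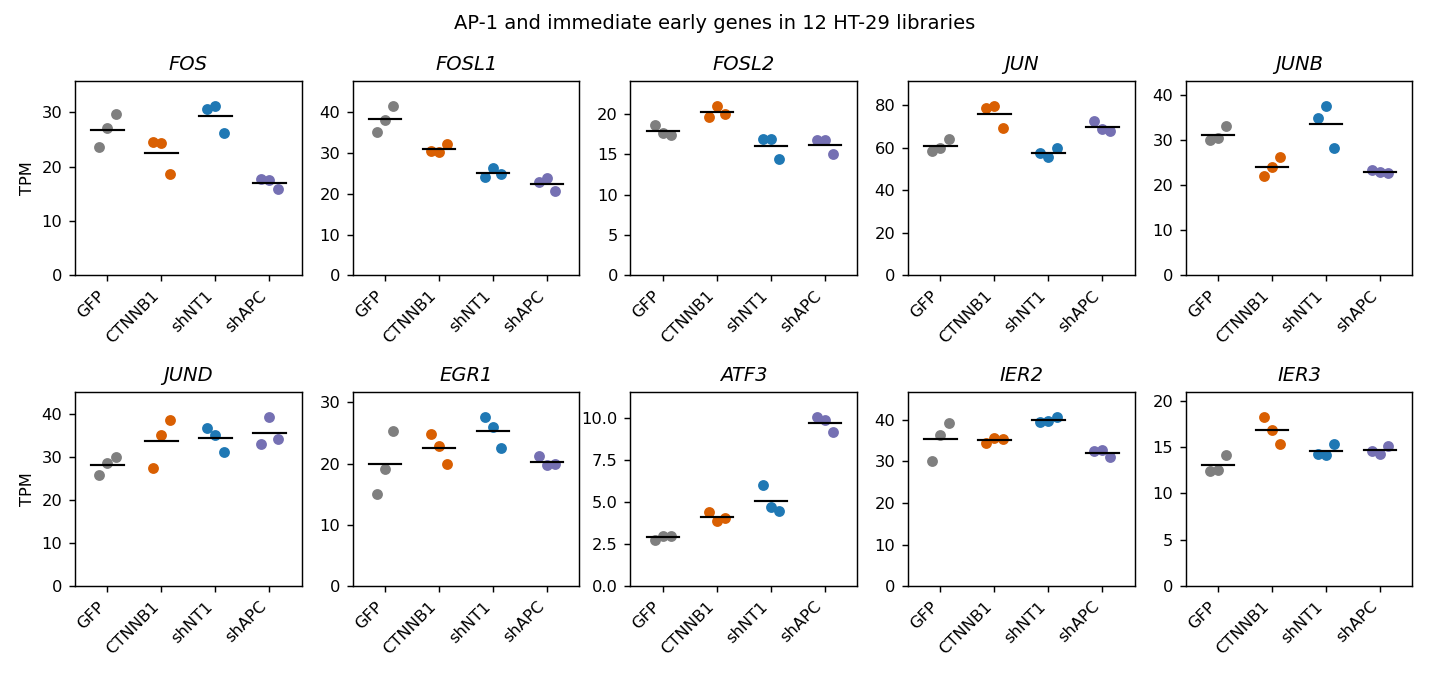
TPM of each of the 10 genes (vertical axis, from 0) in the 4 groups, with a point for each library and a bar at the group mean. ATF3 reached 9.16 to 10.0 TPM in the shAPC libraries, JUN was higher and JUNB lower with each perturbation, and the GFP points of EGR1 spread from 15.1 to 25.3 TPM.

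JUN (chr1:58780791-58784047, minus strand), the main AP-1 activator of its family, was the most abundant of the 10 transcripts in every group. It was at 58.2, 59.6 and 64.2 TPM with GFP and at 78.4, 79.3 and 69.4 TPM with CTNNB1. All CTNNB1 libraries were above all GFP libraries, with a log2 fold change of 0.31 (SE 0.06, adjusted p = 0.0077). In the hairpin arm it was at 57.5, 55.6 and 59.6 TPM with shNT1 and at 72.6, 68.9 and 67.6 TPM with shAPC. Again the groups did not overlap, and the log2 fold change was 0.27 (SE 0.05, adjusted p = 0.0064).

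JUNB (chr19:12791486-12793315, plus strand) is a weaker activator that can restrain JUN. Its values were 30.1, 30.5 and 33.1 TPM with GFP and 22.0, 24.1 and 26.2 TPM with CTNNB1, a log2 fold change of -0.36 (SE 0.07, adjusted p = 0.0068). With shNT1 it was at 34.9, 37.5 and 28.3 TPM and with shAPC at 23.4, 23.0 and 22.7 TPM, a log2 fold change of -0.52 (SE 0.09, adjusted p = 0.0032). Every perturbed library was below every control library of its arm, and shNT1 replicate 3 was the lowest of its group. Nearly the whole length of JUNB, 1820 bases, overlaps the span, introns included, of the protein-coding gene HOOK2 on the opposite strand in GENCODE. Whether reads were counted by strand is not given in the sources used here, so the split of reads between JUNB and HOOK2 is uncertain.

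JUND (chr19:18279694-18281622, minus strand), the family member that is usually expressed without a stimulus, did not pass the test in either arm. It was at 25.8, 28.7 and 29.9 TPM with GFP and at 27.4, 35.1 and 38.5 TPM with CTNNB1, with overlapping groups and a log2 fold change of 0.24 (95% interval -0.01 to 0.49, adjusted p = 0.14). CTNNB1 replicate 1 was the low library, and without it the adjusted p was 0.0039. With shNT1 it was at 36.8, 35.2 and 31.2 TPM and with shAPC at 33.1, 39.2 and 34.3 TPM, a log2 fold change of 0.05 (interval -0.13 to 0.22).

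**Figure D2:**
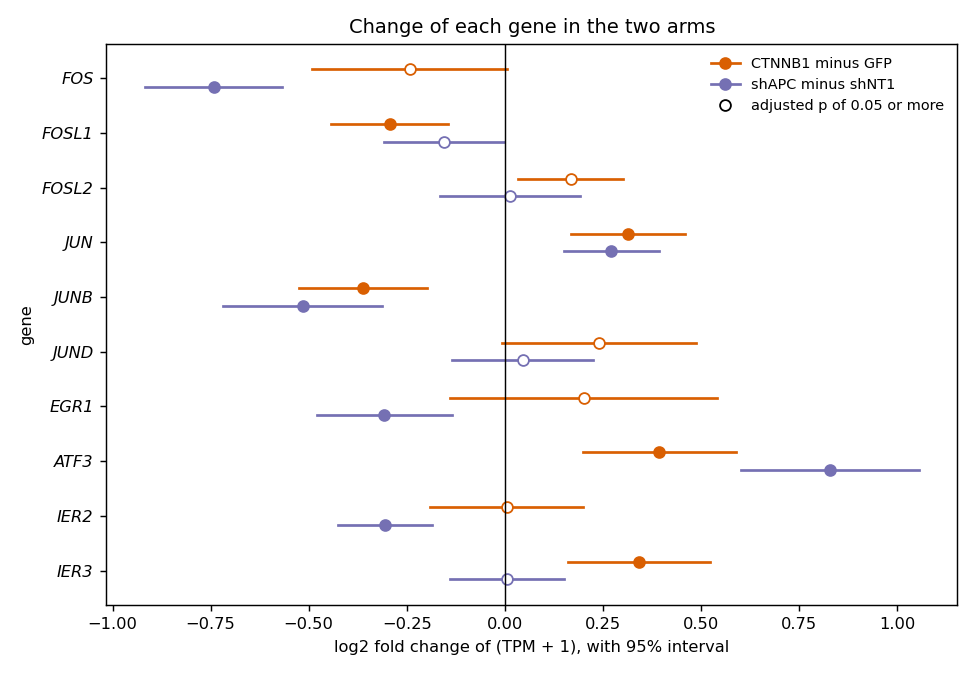
Log2 fold change of each gene (horizontal axis, on the TPM + 1 scale) with its 95% interval from limma, in orange for CTNNB1 against GFP and in purple for shAPC against shNT1, with open points where the adjusted p was 0.05 or more. JUN and ATF3 lie right of 0 and JUNB left of 0 in both arms, and FOS has its interval from -0.92 to -0.57 in the hairpin arm.

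With JUN higher and JUNB lower, the makeup of the JUN family transcripts moved in both arms. TPM is scaled to transcript length, so levels of different genes can be set beside each other, and a ratio within a library does not depend on how libraries are scaled. The ratio of JUN to JUNB was 1.94 ± 0.01 (SD, n = 3) with GFP and 3.17 ± 0.48 with CTNNB1, and 1.74 ± 0.32 with shNT1 and 3.03 ± 0.07 with shAPC. The control libraries lay between 1.48 and 2.10 and the perturbed libraries between 2.64 and 3.57, with no overlap. Of the summed JUN, JUNB and JUND TPM, JUNB made up 26.0% ± 0.37 with GFP and 18.1% ± 1.32 with CTNNB1, and 26.7% ± 2.73 with shNT1 and 18.0% ± 0.35 with shAPC. The JUN share was 50.5% and 56.8% in the open reading frame arm and 46.0% and 54.3% in the hairpin arm. The sum itself was 120 ± 6.63 TPM with GFP and 133 ± 5.35 TPM with CTNNB1, and 126 ± 5.54 and 128 ± 3.42 TPM in the hairpin arm. These ratios and sums follow from the values above and were given no test, and those with JUNB carry the uncertainty of its overlap with HOOK2.

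FOS (chr14:75278828-75282230, plus strand), the classical immediate early partner of JUN, had the largest fall of the 10 genes. It was at 30.6, 31.0 and 26.1 TPM with shNT1 and at 17.7, 17.6 and 15.9 TPM with shAPC. The groups were far apart, with a log2 fold change of -0.74 (SE 0.08, adjusted p = 0.00016). With GFP it was at 23.7, 27.0 and 29.7 TPM and with CTNNB1 at 24.6, 24.4 and 18.7 TPM. These groups overlapped, the log2 fold change was -0.24 (interval -0.49 to 0.01, adjusted p = 0.14), and CTNNB1 replicate 3 was the lowest library.

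FOSL1 (chr11:65892049-65900545, minus strand) encodes FRA1, a FOS family protein that lacks the strong activation domain of FOS and is often high in invasive carcinoma lines. It was at 35.2, 38.1 and 41.3 TPM with GFP and at 30.5, 30.1 and 32.2 TPM with CTNNB1, a log2 fold change of -0.29 (SE 0.07, adjusted p = 0.012). Without GFP replicate 3, its highest library, the adjusted p was 0.053. In the hairpin arm it was at 24.1, 26.2 and 24.8 TPM with shNT1 and at 22.9, 23.7 and 20.6 TPM with shAPC. All shAPC libraries were lower, but the log2 fold change of -0.15 (SE 0.07, adjusted p = 0.13) did not pass the test.

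FOSL2 (chr2:28392858-28417317, plus strand), which encodes FRA2, did not pass the test in either arm. It was at 18.6, 17.6 and 17.4 TPM with GFP and at 19.7, 20.9 and 20.0 TPM with CTNNB1, higher in each CTNNB1 library with a log2 fold change of 0.17 (SE 0.06, adjusted p = 0.068). Without CTNNB1 replicate 1 the adjusted p was 0.034. With shNT1 it was at 16.9, 16.9 and 14.4 TPM and with shAPC at 16.8, 16.8 and 15 TPM, a log2 fold change of 0.01 (interval -0.17 to 0.19).

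FOSB, the remaining FOS family gene, is not among the 10 and completes the family sum. It averaged 1.41 TPM with GFP, 2.11 with CTNNB1, 1.85 with shNT1 and 3.0 with shAPC. The FOS family sum was 84.2 ± 5.51 TPM with GFP and 75.8 ± 2.13 TPM with CTNNB1, and 72.2 ± 4.71 TPM with shNT1 and 58.6 ± 4.04 TPM with shAPC, and the groups of each arm did not overlap. FOS itself made up 40.5% ± 1.47 of that sum with shNT1 and 29.1% ± 0.40 with shAPC, while the FOSL2 share was 22.2% ± 0.81 and 27.6% ± 0.20. In the open reading frame arm the FOS share was 31.7% ± 1.58 and 29.7% ± 3.66, and the FOSL1 share 45.3% ± 0.69 and 40.8% ± 2.64. FOSL1 was the most abundant FOS family transcript with GFP, CTNNB1 and shAPC, while FOS was the most abundant with shNT1. The ratio of JUN to FOS was 2.28 ± 0.16 with GFP and 3.38 ± 0.28 with CTNNB1, and 1.98 ± 0.26 with shNT1 and 4.09 ± 0.16 with shAPC. The ratio of the JUN family sum to the FOS family sum was 1.42 and 1.76 in the open reading frame arm and 1.74 and 2.19 in the hairpin arm.

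**Figure D3:**
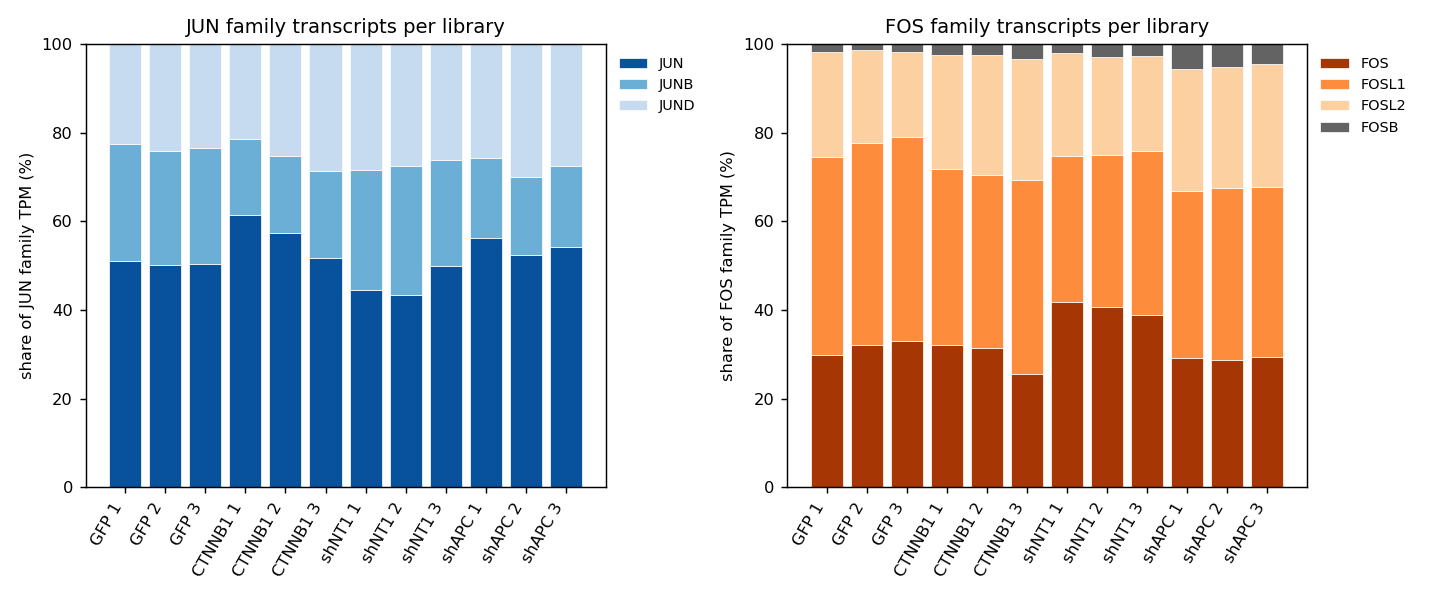
Share of the summed JUN family TPM (left) and FOS family TPM (right) held by each gene, in percent from 0 to 100, with a bar for each of the 12 libraries. The JUNB segment is 23.8% to 29.2% in the control libraries and 17.2% to 19.6% in the perturbed libraries, and the FOS segment is smaller with shAPC than with shNT1.

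ATF3 (chr1:212565407-212620777, plus strand), a stress-induced factor that often acts as a repressor, had the largest rise of the 10 genes and the lowest level. It was at 6.0, 4.69 and 4.45 TPM with shNT1 and at 10.0, 9.86 and 9.16 TPM with shAPC, a log2 fold change of 0.83 (SE 0.10, adjusted p = 0.00042). With GFP it was at 2.73, 2.99 and 2.97 TPM and with CTNNB1 at 4.43, 3.89 and 4.05 TPM, a log2 fold change of 0.39 (SE 0.09, adjusted p = 0.010). Perturbed and control libraries did not overlap in either arm. The control groups themselves were at different levels, 2.89 ± 0.14 TPM with GFP and 5.05 ± 0.83 TPM with shNT1, but they differ in vector, day and doxycycline.

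EGR1 (chr5:138465479-138469303, plus strand), a growth factor responsive activator, was at 27.6, 26.0 and 22.6 TPM with shNT1 and at 21.2, 19.7 and 19.9 TPM with shAPC. The shAPC libraries were all lower, with a log2 fold change of -0.31 (SE 0.08, adjusted p = 0.019). That call depended on settings and single libraries: the adjusted p was between 0.051 and 0.071 on leaving out shNT1 replicate 1, shNT1 replicate 2, shAPC replicate 2 or shAPC replicate 3, 0.058 with no filter on low genes and 0.11 with all groups fitted together. With GFP it was at 15.1, 19.1 and 25.3 TPM and with CTNNB1 at 24.9, 22.9 and 20.0 TPM. The GFP libraries spanned the CTNNB1 libraries, and the log2 fold change of 0.20 had an interval from -0.14 to 0.54.

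IER2 (chr19:13150411-13154911, plus strand), a nuclear early response protein, was at 39.3, 39.5 and 40.6 TPM with shNT1 and at 32.5, 32.7 and 30.9 TPM with shAPC. Both groups were tight and did not overlap, and the log2 fold change was -0.30 (SE 0.05, adjusted p = 0.0033). With GFP it was at 30.0, 36.4 and 39.3 TPM and with CTNNB1 at 34.4, 35.6 and 35.4 TPM, a log2 fold change of 0.00 (interval -0.19 to 0.20).

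IER3 (chr6:30743199-30744547, minus strand), an early response protein linked to survival under stress, was at 12.4, 12.5 and 14.2 TPM with GFP and at 18.2, 16.8 and 15.3 TPM with CTNNB1. All CTNNB1 libraries were higher, with a log2 fold change of 0.34 (SE 0.08, adjusted p = 0.014), and the adjusted p was 0.062 without GFP replicate 1 or without GFP replicate 2. With shNT1 it was at 14.2, 14.2 and 15.4 TPM and with shAPC at 14.6, 14.2 and 15.1 TPM, a log2 fold change of 0.00 (interval -0.14 to 0.15). Antisense genes overlap the annotated spans of IER3, IER2 and FOSL2, over 394, 1123 and 2225 bases. A same-strand intronic gene lies within FOSL2 over 296 bases. Reads of these genes may thus include other transcripts. Spans include introns, and the exonic bases shared were not counted.

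A contrast that subtracts the shAPC effect from that of CTNNB1, in a fit of all 12 libraries, tested whether the arms differed. It called 3 of the 10 genes, FOS and IER3 as positive and ATF3 as negative, against 16.1% of 11741 genes (13.3% positive and 2.76% negative). For FOS the difference was 0.50 (SE 0.15, adjusted p = 0.036), for IER3 0.34 (SE 0.10, adjusted p = 0.039) and for ATF3 -0.43 (SE 0.13, adjusted p = 0.041). In this fit the FOS change was more negative and the ATF3 change more positive with shAPC. The IER3 change was more positive with CTNNB1. Within the arms, FOS was not called with CTNNB1 and IER3 was not called with shAPC. Each of the 3 contrast calls was lost in most of the 18 alternatives run. FOS was called in 6, IER3 in 5 and ATF3 in 5. Adjusted p-values reached 0.10 for FOS and IER3 and 0.092 for ATF3. EGR1 at 0.51 (SE 0.19, adjusted p = 0.085) and IER2 at 0.31 (SE 0.11, adjusted p = 0.061) did not pass the test. For JUN and JUNB, the genes called in both arms besides ATF3, the difference was 0.04 (interval -0.14 to 0.22) and 0.15 (interval -0.11 to 0.42).

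The scale of the libraries bears on this contrast. The median difference over all genes was 0.11 on the log2 scale and 0.00 after median-ratio scaling of the TPM columns, which centres the libraries on their typical gene. The difference after that scaling was 0.39 for FOS (adjusted p = 0.10) and 0.23 for IER3 (adjusted p = 0.10), neither called, and ATF3 was the single gene of the 10 that kept its call. Among all genes called, positive differences made up 82.8% as deposited and 54.9% after scaling. The same shares were 69.5% and 48.8% with CTNNB1 and 32.8% and 45.8% with shAPC. Within each arm the scaling changed no call among the 10 genes.

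Ranked by mean TPM, JUN was highest and ATF3 lowest in all 4 groups, and JUN did not overlap its neighbour in any group. With GFP the order was JUN, FOSL1, IER2, JUNB, JUND, FOS, EGR1, FOSL2, IER3 and ATF3. Neighbours from FOSL1 down to JUNB overlapped, as did those from JUND down to FOSL2. FOSL1 ranked 2 with GFP (38.2 ± 3.07 TPM) and 7 with shNT1 (25.0 ± 1.05 TPM). With shAPC, JUND ranked 2 (35.5 ± 3.26 TPM), above IER2 (32.0 ± 0.96 TPM) without overlap, and FOS ranked 7 (17.1 ± 0.98 TPM), overlapping FOSL2 (16.2 ± 1.02 TPM).

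These genes also varied between libraries of the same group. The standard deviation of log2(TPM + 1) within groups, pooled over the 4 groups, was 0.21 for EGR1, 0.16 for JUND and 0.15 for FOS. Among genes within a 2-fold range of the same mean level, these stood at the 98.2, 96.5 and 94.6 percentiles, while JUN, IER3 and FOSL2 stood at the 45.3, 40.8 and 39.8 percentiles. In the GFP group the deviations were shared by most of the 10 genes. GFP replicate 1 was the lowest GFP library for 9 of the 10 genes, against 37.2% of all genes, and GFP replicate 3 the highest for 8 of the 10, against 46.7%. In the CTNNB1 group, replicates 1, 2 and 3 were the highest for 4, 3 and 3 of the 10, against 54.8%, 22.7% and 22.5%. They were the lowest for 4, 2 and 4, against 29.3%, 25.2% and 45.5%. In the shAPC group, replicate 3 was the lowest for 7 of the 10, against 51.5% of all genes. There replicate 1 was the highest for 6 of the 10, against 58.3%. The shNT1 replicate 3 library, lowest for 6 of the 10, was the lowest of its group for 27.8% of all genes and the highest for 55.3%. It also had the fewest genes with a TPM above 0. The part of these deviations in the comparisons was not tested beyond leaving out each library.

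**Figure D4:**
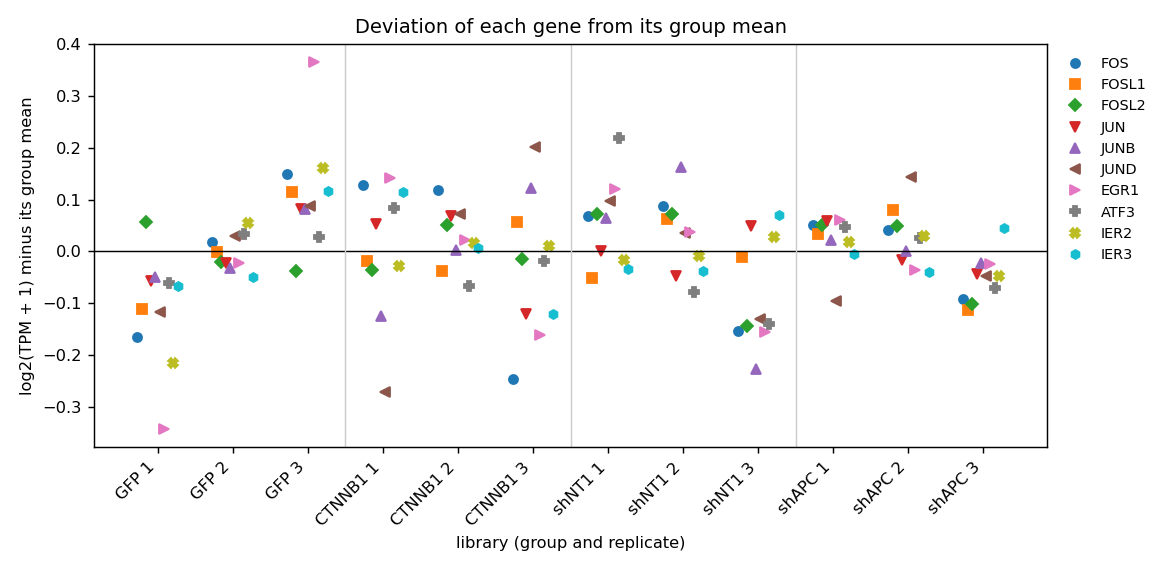
Log2(TPM + 1) of each of the 10 genes minus the mean of its group (vertical axis) in each of the 12 libraries, with a symbol for each gene. The symbols of GFP replicate 1 lie below 0 for all genes but FOSL2 and those of GFP replicate 3 above 0 for all but FOSL2, and EGR1 is the gene farthest from 0 in both.

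For each gene called in at least one arm, the genes with the most similar profile were found over the 12 libraries among the 9439 genes whose TPM averaged 5 or more. Likeness was the root mean square difference of log2(TPM + 1) after each gene's mean was removed, a description that shares libraries and controls with the comparisons above. JUNB had ZFP36, an immediate early gene for an mRNA decay factor, as its second nearest profile (0.10), after MROH6 (0.09). FOS was nearest to SCD (0.11), the stearoyl-CoA desaturase gene, which averaged 993 TPM with shNT1 and 548 TPM with shAPC. ATF3 was nearest to TCEAL1 (0.14) and PNRC1 (0.14), and PNRC1 averaged 26.3 TPM with shNT1 and 47.3 TPM with shAPC. JUN was nearest to OSBPL10 (0.06), PIK3R1 (0.06) and BACE2 (0.06). FOSL1 was nearest to CHPF2 (0.07), IER2 to KIFC1 (0.05), IER3 to RHNO1 (0.06) and EGR1 to NUDT16P1 (0.13).

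Other parts of the pathway were read from gene lists. Of 20 upstream regulators, kinases and factors that act on these genes, CTNNB1 called 3 higher, against 16.3% of all genes, and 0 lower, against 7.16%, so the count was close to that share. The higher genes were ELK4 at 0.32 (SE 0.08), CREB1 at 0.28 (SE 0.08) and MKL2 at 0.27 (SE 0.09), on the log2 scale. ELK4 and MKL2 are partners of serum response factor, and CREB1 binds the cAMP response element. CREB1 and MKL2 lost their calls without GFP replicate 1, 2 or 3 or CTNNB1 replicate 2 (adjusted p from 0.068 to 0.14), and ELK4 without GFP replicate 2 or 3 (0.069 and 0.072). CREB1 and MKL2 also lost them after median-ratio scaling (adjusted p = 0.066 and 0.075), and 2 members of the list were then called lower. With no filter, ELK4, CREB1 and MKL2 all lost their calls (adjusted p = 0.054, 0.095 and 0.12). Without the variance trend, CREB1 and MKL2 lost theirs (0.055 and 0.069). The shAPC hairpin called 0 higher, against 7.24% of all genes, and 6 lower, against 14.9%, with MAP2K1 at -0.70 (SE 0.06), ELK4 at -0.43 (SE 0.07), RPS6KA3 at -0.30 (SE 0.05) and FBXW7 at -0.26 (SE 0.08). The 6 lower calls were 3 without shNT1 replicate 3, shAPC replicate 2 or shAPC replicate 3. MAP2K1 encodes MEK1, the kinase that activates ERK, and averaged 107 ± 5.32 TPM with shNT1 and 65.3 ± 3.39 TPM with shAPC. FBXW7 encodes the ubiquitin ligase subunit that recognises JUN protein. The FBXW7 call was lost without shNT1 replicate 1, shNT1 replicate 3, shAPC replicate 2 or shAPC replicate 3 (adjusted p from 0.076 to 0.12). It was also lost with no filter and with the replicate block (0.085 and 0.079).

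ERK output genes are transcripts that track ERK activity, many of them feedback inhibitors. Of 11, CTNNB1 called 4 higher, against 16.3% of all genes, and 0 lower, against 7.16%. The higher genes were PHLDA1 at 0.72 (SE 0.08), and the phosphatase genes DUSP6 at 0.67 (SE 0.10), DUSP4 at 0.31 (SE 0.07) and DUSP5 at 0.28 (SE 0.08). DUSP5 lost its call after median-ratio scaling (adjusted p = 0.077) and without GFP replicate 2, GFP replicate 3, CTNNB1 replicate 2 or CTNNB1 replicate 3 (0.064 to 0.12), and DUSP4 without GFP replicate 2 (0.053). DUSP5 also lost its call with no filter (adjusted p = 0.075). The shAPC hairpin called 1 higher, against 7.24% of all genes, and 4 lower, against 14.9%. PHLDA1 was higher at 0.63 (SE 0.05), and the lower genes included DUSP4 at -0.49 (SE 0.07) and the Sprouty inhibitors SPRY4 at -0.45 (SE 0.08) and SPRY2 at -0.23 (SE 0.07). SPRY2 lost its call on leaving out any library of the arm but shNT1 replicate 1 (adjusted p from 0.076 to 0.10), and the 4 lower calls were 2 without shNT1 replicate 3, shAPC replicate 2 or shAPC replicate 3. SPRY2 also lost its call with no filter, with the replicate block and with all groups fitted together (adjusted p = 0.074, 0.086 and 0.056). The contrast of the arms called 4 of the 11 as positive, against 13.3% of all genes, and 0 as negative, against 2.76%. Among them were DUSP4 at 0.80 (SE 0.09) and DUSP6 at 0.69 (SE 0.12). DUSP6 averaged 40.4 TPM with GFP, 65.1 with CTNNB1, 66.6 with shNT1 and 65.7 with shAPC, so its control groups were at different levels. The median of the list was 0.12 with CTNNB1, against 0.06 over all genes, and -0.05 with shAPC, against -0.04.

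Of 28 other immediate early genes, 23 were tested. CTNNB1 called 11 higher, against 16.3% of all genes, and 2 lower, against 7.16%. The median was 0.27 against 0.06 over all genes. The higher genes included CTGF, a secreted matricellular protein, at 1.08 (SE 0.09), RHOB, a small GTPase, at 0.82 (SE 0.06), PLK2, a polo-like kinase, at 0.71 (SE 0.07) and BTG2, an antiproliferative gene, at 0.60 (SE 0.09). The shAPC hairpin called 8 higher, against 7.24% of all genes, and 7 lower, against 14.9%, with a median of 0.05 against -0.04. RHOB at 0.71 (SE 0.06) and BTG2 at 0.57 (SE 0.06) were higher, and the zinc finger factor genes KLF6 at -0.79 (SE 0.06) and KLF4 at -0.73 (SE 0.08) were lower. The 7 lower calls were 3 without shNT1 replicate 1, 4 without shNT1 replicate 2 and 2 without shAPC replicate 2 or 3. CTGF was on average 8.5 TPM with GFP and 19.2 TPM with CTNNB1, and its contrast between arms was 1.17 (SE 0.12).

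Of 12 other basic leucine zipper genes of AP-1 and its small Maf relatives, 8 were tested, and BATF was listed at 0 in every library. CTNNB1 called 2 of the 8 and the shAPC hairpin 2 of the 8, against 23.5% and 22.1% of all genes, so neither count stood apart from those shares. CTNNB1 called MAFG at -0.32 (SE 0.07) and MAFK at -0.24 (SE 0.06), both lower. The shAPC hairpin called MAFK lower at -0.27 (SE 0.07) and FOSB higher at 0.49 (SE 0.13). MAFK lost its call without GFP replicate 1, 2 or 3 or CTNNB1 replicate 2 in the open reading frame arm, and without shNT1 replicate 1, shNT1 replicate 2 or shAPC replicate 3 in the hairpin arm (adjusted p from 0.051 to 0.10). MAFK also lost its call in the open reading frame arm with no filter (adjusted p = 0.051). FOSB was not called without shNT1 replicate 1, shAPC replicate 1 or shAPC replicate 2.

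Of 23 genes often given as AP-1 targets, 17 were tested with CTNNB1 and 16 with shAPC. CTNNB1 called 4 higher, against 16.3% of all genes, and 6 lower, against 7.16%, with CXCL8, a neutrophil chemokine, at 0.81 (SE 0.09), CCND1, the cyclin D1 gene, at 0.57 (SE 0.05), PLAUR, the urokinase receptor, at -0.53 (SE 0.06) and HBEGF, an EGF receptor ligand, at -0.38 (SE 0.08). The shAPC hairpin called 2 higher, against 7.24% of all genes, and 5 lower, against 14.9%, with CXCL8 at 1.66 (SE 0.07), PLAUR at -0.79 (SE 0.08) and HBEGF at -0.74 (SE 0.12). The 6 lower calls with CTNNB1 were 3, 3 and 2 without GFP replicate 1, 2 and 3. CXCL8 averaged 6.28 ± 0.26 TPM with shNT1 and 22.0 ± 1.60 TPM with shAPC, and its contrast between arms was -0.85 (SE 0.12). The list median was -0.04 with CTNNB1 and -0.13 with shAPC, against 0.06 and -0.04 over all genes, so the targets did not share a direction.

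**Figure D5:**
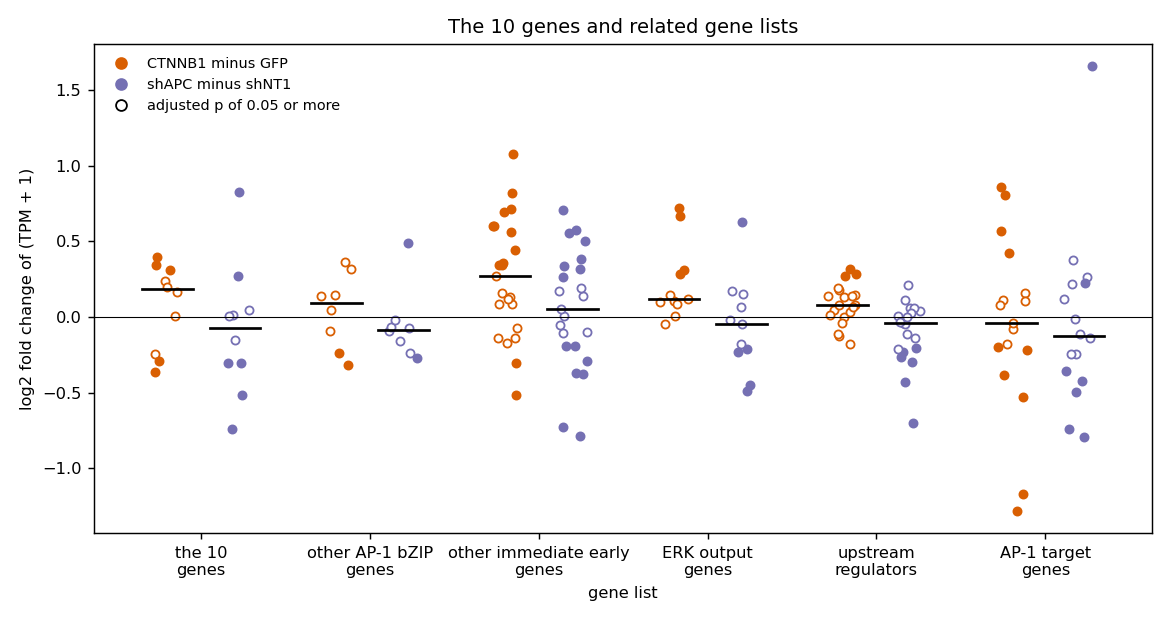
Log2 fold change (vertical axis, on the TPM + 1 scale) of the 10 genes and of every tested gene of 5 related lists, in orange for CTNNB1 against GFP and in purple for shAPC against shNT1, with filled points for adjusted p under 0.05 and a bar at each median. The other immediate early genes had a median of 0.27 with CTNNB1 and 0.05 with shAPC, and CXCL8 is the highest purple point at 1.66.

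In the authors' deposited tables of limma results, 5 of the 10 genes had an adjusted p under 0.05 for CTNNB1 and 4 for APC. The share of all their genes under that threshold was not taken, so neither count is read as particular to these genes. The authors' deposited table for CTNNB1 gave log2 fold changes of 0.25 for JUN, -0.45 for JUNB, -0.38 for FOSL1, 0.43 for ATF3 and 0.29 for IER3. The authors' deposited table lists IER3 under an Ensembl identifier other than that of the primary chromosome 6 gene in GENCODE v29, so its value may not belong to the coordinates given above. The authors' deposited table for APC gave -0.74 for FOS, 0.32 for JUN, 0.98 for ATF3 and -0.28 for IER2. In the authors' deposited table for APC, JUNB (adjusted p = 0.077) and EGR1 (adjusted p = 0.15) were not under that threshold.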

How the data were processed

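RNA-seq of 12 libraries was compared within 2 arms of 3 against 3. Per the labels, libraries were made with an mRNA kit from total RNA. STAR 2.7.3a, limma and hg38 are named in the submitters' processing notes; the tool that made the abundances, the annotation and strandedness are not given in the sources used here. The authors deposited TPM, scaled so that each library sums to 1e+06, which was used as the values of every fit; no column was unused. They also deposited log2 fold changes and adjusted p-values of their own, printed only where named. In the TPM table, 27 row names are dates and were kept as they stand.

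Log2(TPM + 1) of genes whose TPM averaged 1 or more was fitted with limma 3.58.1 (R 4.3.3) with trended variances, each arm alone, and with Benjamini-Hochberg adjustment over all genes. The contrast between arms used all 12 libraries. The script was tested on simulated data. The members and lists were chosen with earlier results of these data known. Named genes are the 10 members, up to 4 called genes per list and arm with the largest change at a mean TPM of at least 5, and the 3 nearest profiles; FOSB was added to complete its family and was chosen after its values were seen. A gene that the rule names is not reported here. The fits were repeated with median-ratio scaling, without the variance trend, with 0.1 as pseudocount, unfiltered, with the filter raised to 5 TPM, with a replicate block, with all 4 groups together, and on leaving out each library. Positions and overlaps are from GENCODE v29 and RefSeq GRCh38.p14.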

Additional observations from a re-analysis of the deposited data

Results flagged for a closer look

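The limma contrast between arms called a difference between the effects of CTNNB1 and shAPC for 3 of the 10 genes, against 16.1% of the 11741 genes tested. Each of the 3 calls was lost in most of the 18 alternatives run (FOS was called in 6, ATF3 in 5 and IER3 in 5), and the replicate block called 0 of the 10. The difference in log2 fold change was 0.50 for FOS, which had log2 fold changes of -0.24 with CTNNB1 and -0.74 with shAPC. It was -0.43 for ATF3, which had 0.39 with CTNNB1 and 0.83 with shAPC. It was 0.34 for IER3, which had 0.34 with CTNNB1 and 0.00 with shAPC.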

How the results depend on the processing

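JUN, JUNB and ATF3 in both arms, and FOS and IER2 with shAPC, kept their direction and call in every alternative that could test them; ATF3 fell below the filter with a mean TPM of at least 5 in the CTNNB1 arm. IER2 with CTNNB1 turned to -0.0594 and the JUN difference between arms to -0.0689 after median-ratio scaling. Leaving out a library in turn turned IER2 with CTNNB1 (-0.103 to 0.0851), and with shAPC IER3 (-0.0180 to 0.0400), FOSL2 (-0.0598 to 0.0629) and JUND (-0.0261 to 0.0936); none of these was called. The number of the 10 genes called in the contrast between arms was 3 as reported, 0 with no filter, 1 with median-ratio scaling, and 0 to 4 on leaving out a library. Genes called over all were 1499 to 3190 with CTNNB1, 1484 to 2252 with shAPC and 995 to 2143 in the contrast on leaving out a library. They fell by over 1.5 times with CTNNB1 without GFP replicate 1, 2 or 3 (1617, 1499 and 1705) or CTNNB1 replicate 2 (1760), with shAPC without shAPC replicate 2 or 3 (1646 and 1484), and in the contrast without GFP replicate 1 or 2 (1092 and 995) or shAPC replicate 2 or 3 (1246 and 1021). With no filter, lower calls with shAPC were 2 of the other immediate early genes, 2 of the ERK output genes and 3 of the upstream regulators. The replicate block left 1145 genes and 0 of the 10 called in the contrast, and with CTNNB1 it called JUND as well (adjusted p = 0.032). Deviations of same-numbered libraries correlated at 0.21, 0.08 and 0.12 in the CTNNB1 arm, against -0.19 to 0.08 for libraries of different number. In the shAPC arm the values were -0.14, 0.00 and -0.21, against -0.13 to 0.21. The labels do not say what the numbers mark, and the main fits did not pair libraries. Whether the libraries of the CTNNB1 arm are paired is left undecided. Named list genes kept their call in 396 checks and lost it in 46, with none reversed. Depth is unknown with TPM.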
